A study of Mus musculus with 3 samples.

Results

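The 10 genes described here encode mitochondrial proteins of the respiratory chain and were taken by their Ensembl IDs from a ribosome profiling series of mouse testis. All 10 IDs were found among the 22183 gene IDs of the deposited tables, and all 10 passed the filter on low counts that left 16208 IDs for testing. The series compares 2 testis libraries labelled as knockout of the long noncoding RNA TSCL1 (KO1 and KO2) with 1 wild-type testis library (WT). The labels give no age, strain, allele or treatment, and nothing in them says that KO1 and KO2 came from separate animals. The series title links TSCL1 to translation by way of PIWIL1, a piRNA-binding protein of male germ cells. The files pair no IDs with names and the gene table used here holds no Ensembl IDs, so the names of the 10 genes come from the definition of this gene set. For the same reason TSCL1 itself was not analysed, and neither the genotype labels nor the tissue were checked against marker genes.

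Mammalian mitochondria keep a small circular genome whose protein genes all encode membrane subunits of the respiratory complexes and of ATP synthase. Their mRNAs are made inside the organelle, carry short poly(A) tails and are read there by mitochondrial ribosomes, which differ from those of the cytosol. Each complex except complex II joins these subunits to others encoded in the nucleus. In the testis, mitochondria change in form as germ cells pass through meiosis, and mature sperm carry them in a sheath around the midpiece of the tail. Ribosome profiling sequences RNA pieces protected by ribosomes. Per the labels' protocols, testis nuclei were isolated, treated with nuclease and purified for protected fragments, but the same text goes on to oligo(dT) enrichment and RNA fragmentation. Which of these steps shaped the counts on mitochondrial genes was not tested.

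Counts over all genes summed to 19827686 for KO1, 31667845 for KO2 and 13126663 for WT. The common biological coefficient of variation, which is the spread between libraries beyond counting, was 0.333 between KO1 and KO2, 0.119 when KO1 and WT were taken as the pair and 0.346 for KO2 and WT. KO2 thus stood apart, and each result below is given for KO1 and KO2 separately.

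KO1 had 29.9% of its gene counts on the 10 genes (exact 95% binomial interval 29.92 to 29.96), KO2 had 11.1% (11.05 to 11.07) and WT had 26.7% (26.71 to 26.76). The intervals cover counting error only. The knockout share was 20.5 ± 13.4% (SD, n = 2), and the distance between the knockout libraries was larger than the distance of either from WT. Set against the counts on all other genes, which do not include the 10 themselves, there were 427 mitochondrial counts per 1000 others in KO1, 124 in KO2 and 365 in WT. These genes made up 5 of the 5 most counted IDs in KO1 and 4 of 5 in KO2, against 5 of 5 in WT. They made up 9 of the 10 most counted IDs in KO1 and 6 of 10 in KO2, against 9 of 10 in WT. In bulk tissue, fewer cells of a type and less RNA per cell cannot be told apart. No RNA library stands beside these ribosome profiling libraries, so the amount of an mRNA and its occupancy by ribosomes cannot be told apart either. The part played by the preparation steps named above was not tested.

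**Figure D1:**
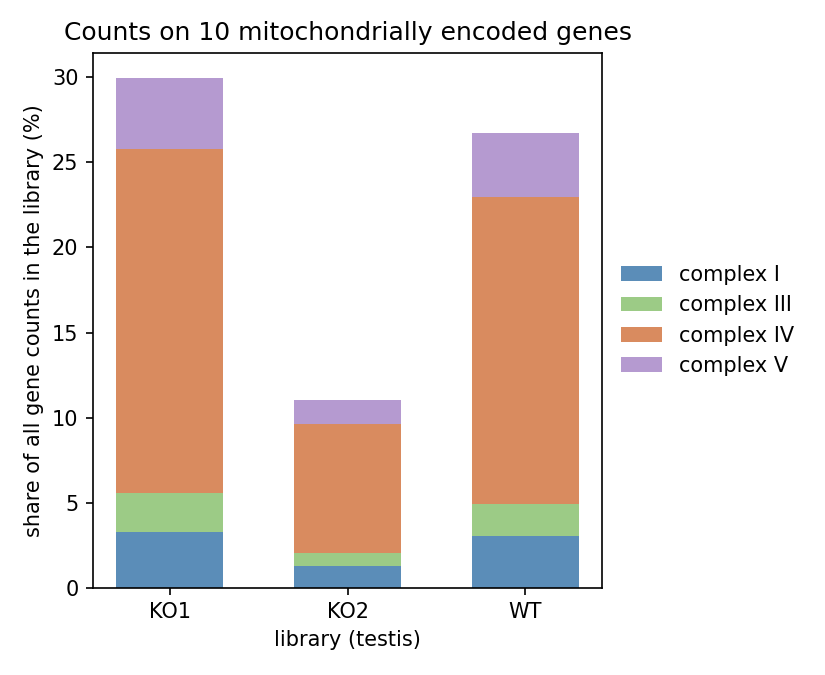
Bars show the percentage of all gene counts in each testis library (KO1, KO2, WT) that fell on the 10 mitochondrially encoded genes, stacked by the respiratory complex of their product. The whole bar stands at 29.9% in KO1, 11.1% in KO2 and 26.7% in WT, with complex IV the widest band in each library.

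Knockout against wild type gave no call for any of the 10 genes. In edgeR's quasi-likelihood test with Benjamini-Hochberg adjustment over all 16208 tested IDs, 0 of 10 passed an adjusted p of 0.05, where 0.0987% of all tested IDs did. At an unadjusted p under 0.05 the number was also 0 of 10, beside 1.57% of all tested IDs. DESeq2 likewise called 0 of 10, with 0.0802% of all IDs called. The fitted log2 fold changes of knockout over wild type ran from -0.58 for mt-Atp8 to -0.16 for mt-Co2, with a median of -0.31 beside 0.01 over all tested IDs. Unadjusted p-values ran from 0.536 to 0.907. The test has 1 residual degree of freedom, taken from KO1 and KO2, and assumes that the lone WT library varies as they do, so these p-values do not show that the levels were alike.

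These fitted values average knockout libraries that lay on opposite sides of WT. On CPM, the counts scaled to the library size and here also by TMM factors, all 10 genes were higher in KO1 than in WT and lower in KO2 than in WT, an order that 19.2% of all tested IDs had. With library totals only, or on FPKM, 8 of 10 kept that order, which 11.0% of tested IDs had with totals and 12.2% had on FPKM. The exceptions mt-Co3 and mt-Atp8 were lower than WT in both knockout libraries, as were 42.7% of tested IDs with library totals and 41.3% on FPKM. The KO1 minus WT differences in log2 CPM ran from 0.08 for mt-Atp8 to 0.41 for mt-Co2, inside the range from -0.71 to 0.67 that held the central 90% of tested IDs. In KO2 minus WT the range was -1.83 for mt-Atp8 to -1.10 for mt-Co2, where 5.48% of tested IDs lay below the highest of the 10. In KO2 each of the 10 stood 2-fold or more below KO1 and also below WT, against 3.65% of tested IDs. That count of 10 was the same with each scaling tried. For these genes FPKM and library totals give the same comparison, since each gene's length did not vary between libraries. Their agreement is thus not a separate check. Without the prior count the share of tested IDs was 4.31% with TMM factors, and it lay between 3.88% and 4.60% over the scalings. Each such count sets single libraries side by side and has no replicate check. The 10 genes share the mitochondrial genome, so they are not replicates of each other.

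**Figure D2:**
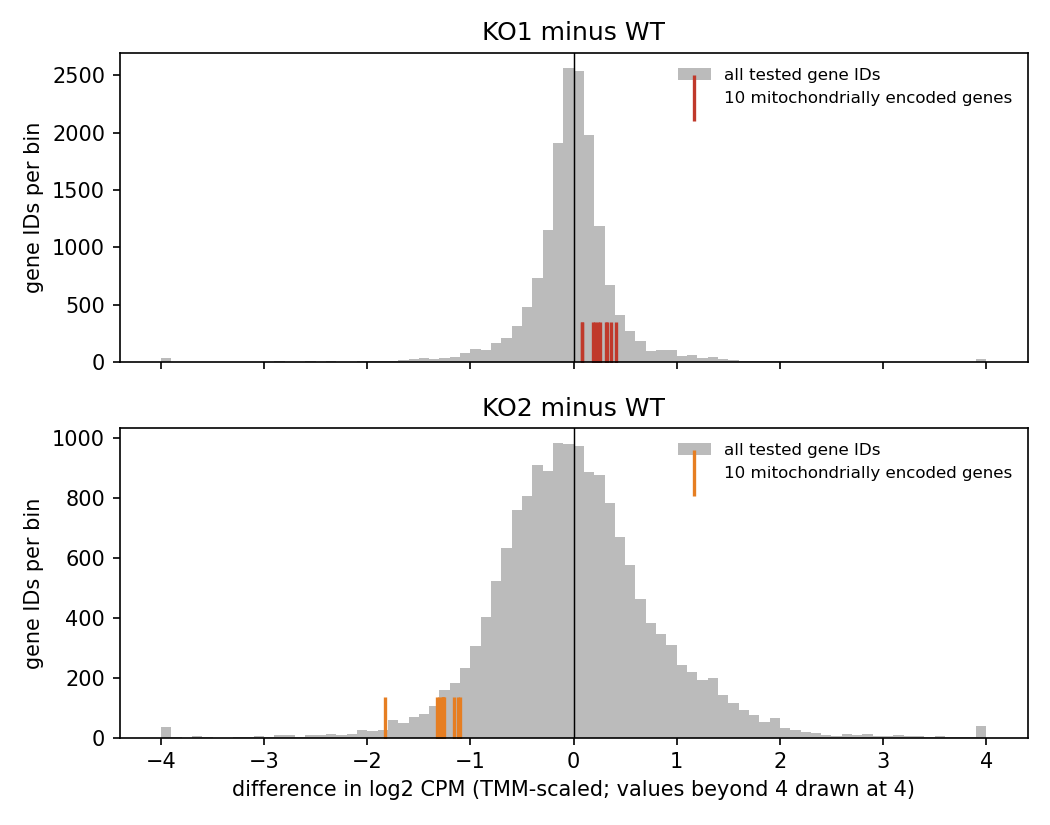
Grey bars count tested gene IDs by their difference in TMM-scaled log2 CPM from WT, for KO1 (top) and KO2 (bottom), and coloured ticks mark the 10 mitochondrially encoded genes. The ticks lie between 0.08 and 0.41 for KO1 and between -1.83 and -1.10 for KO2.

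Levels per gene length are given as the deposited FPKM, in which counts are divided by gene length and library size. They are levels of ribosome profiling counts and do not measure RNA amount alone. For each of the 10 genes, count and FPKM implied the same length in all 3 libraries to the nearest base. That length was 29 bases above the RefSeq gene length for 7 genes and 32 above it for mt-Co3, mt-Nd4 and mt-Cytb. The FPKM of these genes thus follow from the deposited counts and library totals. Coordinates below are those of RefSeq on chromosome MT of GRCm38.p6. Every gene here lacks introns, and the positions span its coding sequence. The mouse nuclear genome also holds near-identical copies of stretches of mitochondrial DNA. How reads matching both were counted is not given in these sources, which leaves the split between them uncertain.

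Complex IV, cytochrome c oxidase, passes electrons to oxygen, and its 3 mitochondrially encoded core subunits had the highest summed level of any complex. They took 62.9% of the 10 genes' summed FPKM in KO1, 65.1% in KO2 and 61.7% in WT. mt-Co2 (ENSMUSG00000064354, 7013 to 7696) encodes the subunit that takes electrons from cytochrome c. It had 119993 FPKM in KO1, 44820 in KO2 and 98849 in WT, and ranked first among all gene IDs in every library. Its knockout level was thus 82407 ± 53156 FPKM (SD, n = 2), and WT lay between the knockout libraries. mt-Co1 (ENSMUSG00000064351, 5328 to 6872), whose product holds the site where oxygen is reduced, followed in rank in each library. Its levels were 58817 FPKM in KO1, 21676 in KO2 and 53879 in WT, again with WT between the knockout libraries. mt-Co3 (ENSMUSG00000064358, 8607 to 9390) encodes the remaining core subunit and had 29662 FPKM in KO1, 12039 in KO2 and 30588 in WT. Here WT was the highest of the 3, by a small margin over KO1.

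Complex V, ATP synthase, uses the proton gradient to make ATP. Its 2 genes are neighbours that overlap by 43 bases in RefSeq, and reads within the overlap cannot be assigned to one of them. mt-Atp6 (ENSMUSG00000064357, 7927 to 8607), which encodes the subunit that lines the path of the protons, had 48734 FPKM in KO1, 17320 in KO2 and 42900 in WT. mt-Atp8 (ENSMUSG00000064356, 7766 to 7969) encodes a small membrane subunit and is the shortest of the 10 genes with 204 bases. It had 30575 FPKM in KO1, 8657 in KO2 and 31637 in WT, so that KO1 and WT were close and KO2 far lower. On TMM-scaled CPM, the KO2 level of mt-Atp8 was 0.282 of the WT level, the lowest such ratio among the 10, whose other values lay between 0.399 and 0.467.

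Complex III carries electrons from ubiquinol to cytochrome c, and mt-Cytb is its one mitochondrially encoded subunit (ENSMUSG00000064370, 14145 to 15288). The gene had 19072 FPKM in KO1, 6547 in KO2 and 16178 in WT. KO1 was the highest and KO2 the lowest library, as for mt-Co1 and mt-Co2.

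Complex I takes electrons from NADH, and its genes had the lowest levels of the set. mt-Nd1 (ENSMUSG00000064341, 2751 to 3707) encodes a membrane subunit near the site where ubiquinone binds. It had 6006 FPKM in KO1, 2544 in KO2 and 5690 in WT. Besides it, 3 genes of the list encode the antiporter-like subunits of the membrane arm that pumps protons. mt-Nd2 (ENSMUSG00000064345, 3914 to 4951) had 7217 FPKM in KO1, 2678 in KO2 and 6911 in WT. mt-Nd4 (ENSMUSG00000064363, 10167 to 11544) had 4982 FPKM in KO1, 1882 in KO2 and 4625 in WT, and was the lowest of the 10 in each library. mt-Nd5 (ENSMUSG00000064367, 11742 to 13565) had 6611 FPKM in KO1, 2510 in KO2 and 5782 in WT. In all 4 complex I genes KO1 was the highest library, WT a little lower and KO2 the lowest. Of these, mt-Nd4 overlaps the annotated mt-Nd4l by 7 bases and mt-Nd5 overlaps mt-Nd6 by 14. The genes mt-Nd3, mt-Nd4l and mt-Nd6 were not analysed here.

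The order of the genes by FPKM was the same in KO1 and WT. KO2 differed from it only in 2 places, where mt-Co3 stood above mt-Atp8 and mt-Nd1 above mt-Nd5. The highest gene stood 24.1 times above the lowest in KO1, 23.8 times in KO2 and 21.4 times in WT. Among complex I genes, mt-Nd1 stood at 0.908 of the mt-Nd5 level in KO1, 1.01 in KO2 and 0.984 in WT. mt-Nd2 stood at 1.09 times mt-Nd5 in KO1, 1.07 in KO2 and 1.20 in WT, and mt-Nd4 at 0.753 of mt-Nd5 in KO1, 0.750 in KO2 and 0.800 in WT. Even mt-Nd4, at 1882 FPKM in KO2, was far above the median tested ID, at 10.2 FPKM in KO1, 10.5 in KO2 and 11.4 in WT.

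**Figure D3:**
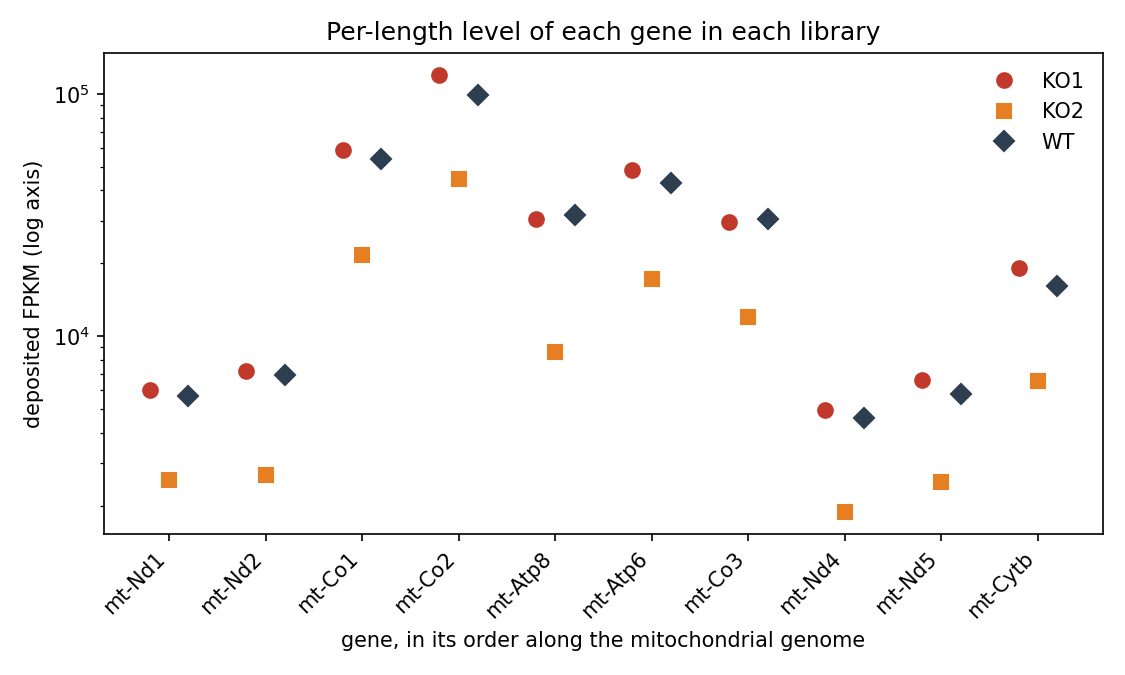
Points give the deposited FPKM, on a log axis, of each gene in KO1, KO2 and WT, with genes in their order along the mitochondrial genome. mt-Co2 is the highest and mt-Nd4 the lowest gene in every library, and the KO2 point lies below both others for each gene.

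Since KO2 held fewer mitochondrial counts as a whole, the balance among the 10 genes was also described as each gene's share of their summed counts. Summed by complex, this balance was nearly the same in the 3 libraries. Of these counts, complex I genes took 11.0% in KO1, 11.5% in KO2 and 11.3% in WT. Complex IV genes took 67.6% in KO1, 68.6% in KO2 and 67.4% in WT. Complex V genes held 13.9% in KO1, 12.9% in KO2 and 14.2% in WT, and mt-Cytb held 7.49%, 6.96% and 7.12% in the same order. The median absolute log2 difference in share over the 10 genes was 0.08 between KO1 and WT, 0.07 between KO2 and WT and 0.05 between KO2 and KO1.

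On the log2 scale, the gene whose share differed most from WT was mt-Atp8, while in percentage points mt-Co2 and mt-Co3 spanned more. Of the 10 genes' counts it took 2.38% in KO1 (exact 95% binomial interval 2.37 to 2.39), 1.82% in KO2 (1.81 to 1.84) and 2.76% in WT (2.74 to 2.77). Both knockout libraries were below WT, but the log2 difference between them, -0.38 for KO2 minus KO1, was larger than the -0.21 between KO1 and WT. Per length, mt-Atp8 stood at 0.627 of mt-Atp6 in KO1 and 0.500 in KO2, against 0.737 in WT. The genes overlap by 43 bases, where reads cannot be assigned to one of them. mt-Co3 was also below WT in both knockout libraries, at 8.08% in KO1 and 8.88% in KO2 against 9.34% in WT, and there too the nearer knockout library was closer to WT than to the other.

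By share of the 10 genes' counts, 3 of the 10 had both knockout libraries on one side of WT by more than those libraries differed. This count has no background to set it against and is not read as an effect of the knockout. The share of mt-Co2 was 28.6% in KO1 and 28.9% in KO2, against 26.4% in WT, a ratio of the knockout mean to WT of 1.09. Per length, mt-Co2 stood at 2.04 times mt-Co1 in KO1 and 2.07 times in KO2, against 1.83 times in WT. mt-Nd2 lay lower in both knockout libraries, with 2.57% in KO1 and 2.58% in KO2, against 2.76% in WT. The share of mt-Co1 was 30.92% in KO1 and 30.85% in KO2, against 31.72% in WT, a ratio of 0.974. Shares sum to a fixed total, so a higher share of one gene lowers the rest. The lower share of mt-Co1 therefore cannot be read apart from the higher share of mt-Co2, and the ratio of these genes restates the same shift. On TMM-scaled CPM, 20.0% of all tested IDs had both knockout libraries on one side of WT by more than their own difference, and 0 of the 10 genes did. The shares are on another scale, for which no background over all IDs is given. With 2 knockout libraries and 1 wild-type library, an exact permutation test cannot give a one-sided p below 0.333. No other test was run on the shares.

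**Figure D4:**
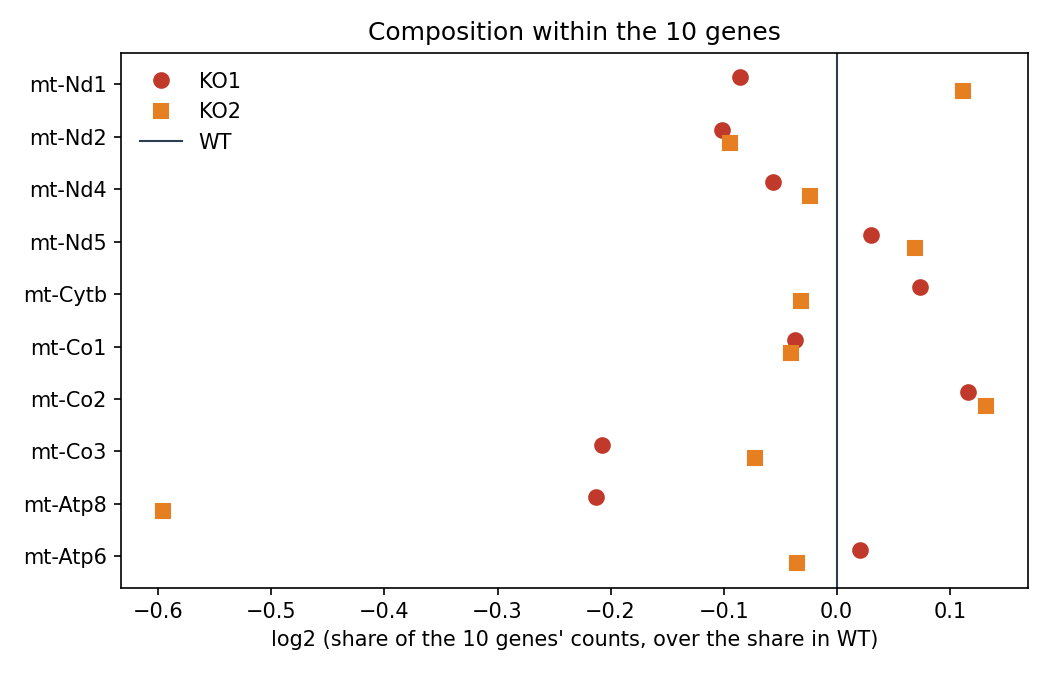
For each gene, points give the log2 ratio of its share of the 10 genes' counts in KO1 and in KO2 to its share in WT, drawn as the line at 0. mt-Atp8 lies farthest from the line, at -0.21 in KO1 and -0.60 in KO2, while mt-Co2 lies at 0.12 and 0.13.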

How the data were processed

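Per the submitters' processing notes, HISAT2, featureCounts and build GRCm38 were used. Not given in these sources are versions, annotation, and the strand, multi-mapping and footprint length settings. The authors deposited raw counts per Ensembl gene ID, 1 column per library. The authors also deposited FPKM values for the same IDs, whose tool is not given. Counts were tested in edgeR 4.0.16 under R 4.3.3 with its quasi-likelihood F-test on genotype alone, after filterByExpr and TMM scaling, with Benjamini-Hochberg adjustment over all tested IDs. KO1 had a TMM factor of 0.951, KO2 of 1.01 and WT of 1.04. log2 CPM used a prior count of 2. The alternatives were DESeq2 1.42.0, limma 3.58.1 on log2 FPKM with pseudocounts of 1 and 0.1, other scaling, no filter, and leaving out each knockout library. Figures were drawn with matplotlib 3.10.9.

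All 10 genes are named in every result. The genes and lists were chosen with earlier results of these data known. Lists of nuclear respiratory subunits, mitochondrial expression factors, cell type markers and genes of like pattern could not be used, since 0 Ensembl IDs were matched to names. RefSeq gene positions were matched by symbol for all 10 genes.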

Additional observations from a re-analysis of the deposited data

How the results depend on the processing

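Under 7 alternative settings of the test, 0 of 70 tests of the 10 genes passed the threshold and 0 changed direction, with log2 fold changes of knockout over wild type from -0.96 to -0.15 and a lowest unadjusted p of 0.386. The median of the 10 was -0.31 and lay between -0.58 (limma on FPKM, both pseudocounts) and -0.30 (RLE factors, DESeq2). Over all IDs the median was 0.01, and -0.09 on log2(FPKM + 0.1). All 7 settings set the same KO1 and KO2 against the same WT library, so the unchanged direction is not a separate check. With KO1 left out the median of the 10 was -1.26. With KO2 left out it was 0.25, and all 10 genes turned positive, from 0.08 to 0.41. These are values of 1 library against 1 without a test. Against 16 calls over all IDs there were 68 with no filter, which tested 19265 IDs, and 5 and 8 with limma on FPKM plus 1 and plus 0.1, for which the cause was not tested. The 10 genes took a share of 32.8% in KO1, 12.8% in KO2 and 29.1% in WT without the 50 most counted other IDs, a smaller denominator by construction, and 31.5%, 11.7% and 28.2% of summed FPKM in the same order. Counting genes by the order of their libraries, and the scalings tried for it, were choices added once the data had been seen. No paired analysis was possible with 1 wild-type library. The lowest count of any of the 10 genes was 63880, for mt-Atp8 in KO2, so that counting error was small beside the difference between KO1 and KO2.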
